A study of Mus musculus with 8 samples.

Results

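Cytochrome oxidase, complex IV of the mitochondrial respiratory chain, passes electrons to oxygen and pumps protons. Several of its nucleus-encoded subunits exist as alternative forms from separate genes, and the forms that differ between tissues were followed here in inguinal fat (iWAT), a subcutaneous white fat depot. The 10 genes (Cox4i1, Cox4i2, Cox6a1, Cox6a2, Cox6b2, Cox7a1, Cox7a2, Cox7a2l, Cox8a and Cox8b) were taken by name, with earlier results of these data known. The set was put forward after Cox7a1 and Cox8b had stood out by their signal in the comparison described below. Each difference between the groups in these genes is therefore a description, and no p-value is given for it. Where calls among these genes are counted below, nothing is read from the counts. The lists of other genes used below were also chosen with earlier results of these data known. All 10 were measured, each above background on all 8 arrays, among 14731 genes tested.

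Subunits VIa, VIIa and VIII each come in a form of heart and skeletal muscle (Cox6a2, Cox7a1 and Cox8b) and a form found in most tissues (Cox6a1, Cox7a2 and Cox8a). Brown fat, the heat-producing fat, also uses muscle-type forms, and Cox7a1 and Cox8b are widely used as its markers. Subunit IV has the general form Cox4i1 and the form Cox4i2, best known from lung, while Cox6b2 is the testis form of a subunit whose general form is Cox6b1. Cox7a2l, a relative of Cox7a2, helps to join complexes III and IV into supercomplexes.

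The series asks whether loss of Senp2, which encodes a SUMO-removing protease, turns white fat towards a brown state. The control mice are Senp2flox/flox (4 samples) and the Senp2-aKO mice Senp2flox/flox with Adipoq Cre (4 samples). Both thus carry the floxed alleles, and Cre is driven from the adiponectin gene, which adipocytes express. Mice of both groups were 8 weeks old at the start of a diet with 58 kcal% fat, which they received for 12 weeks at 22 to 24 °C. The iWAT was measured whole, with its blood vessels, immune cells and any adjoining tissue, so in these data fewer cells of a type and less RNA per cell cannot be told apart. The labels number the samples without saying that each came from a separate animal, so errors and p-values measure only the spread between these samples.

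A single slide carried the 8 arrays and was scanned once (1 slide, 1 scan). Controls took one of its rows and Senp2-aKO samples the other, and these cannot be told apart. Signal at the 75th percentile was 408 to 446 on control and 324 to 382 on Senp2-aKO arrays, and no spot was saturated. Senp2 itself, read by 1 probe, stood at 2.37 to 2.52 on control and 2.12 to 2.22 on Senp2-aKO arrays, in log2 levels, with no overlap (log2 difference -0.27, SE 0.08, limma adjusted p = 0.0507). Of 6 adipocyte genes, Adipoq was high in both groups, at 8.62 ± 0.20 and 8.73 ± 0.23 (SD, n = 4 per group). The 6 did not differ alike. Lep was lower in Senp2-aKO samples (log2 difference -1.85, SE 0.27, limma adjusted p = 0.00761). Pparg was lower with no overlap but did not pass (-0.55, SE 0.18), and the other 4, Adipoq among them, differed by 0.05 to 0.44. Senp2-aKO 2 stood apart by its lymphocyte genes: its means were 2.08 for the B cell list and 2.65 for the T cell list, against at most -0.64 and 0.07 on the other 7 arrays.

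Levels below are log2 processed signals relative to the 75th percentile of the array, so that 1 unit is a doubling and 0 is that percentile. They are comparable between arrays for a gene, not between genes, because each probe has its own brightness. Differences are Senp2-aKO minus control, with standard errors from limma, a linear model with variances moderated over all genes.

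The upstream sequences of both VIIa and both VIII forms are shown because the muscle-type and general forms differed there in a feature that the choice of genes did not use, the number of CpG dinucleotides. Each is the 250 bases before the annotated start (RefSeq, GRCm38.p6), 5′ to 3′ on the gene's strand, with each CpG in capitals. They lie at chr7:30183921-30184170 (plus strand, Cox7a1), chr9:79759854-79760103 (minus, Cox7a2), chr7:140900447-140900696 (minus, Cox8b) and chr19:7217617-7217866 (minus, Cox8a). The Cox7a2 window belongs to a start inside the annotated span of the gene.
Cox7a1: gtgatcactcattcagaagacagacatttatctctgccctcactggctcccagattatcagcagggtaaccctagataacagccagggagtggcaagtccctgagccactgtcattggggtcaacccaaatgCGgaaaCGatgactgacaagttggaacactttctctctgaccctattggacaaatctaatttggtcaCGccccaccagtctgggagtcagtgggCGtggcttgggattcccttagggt
Cox7a2: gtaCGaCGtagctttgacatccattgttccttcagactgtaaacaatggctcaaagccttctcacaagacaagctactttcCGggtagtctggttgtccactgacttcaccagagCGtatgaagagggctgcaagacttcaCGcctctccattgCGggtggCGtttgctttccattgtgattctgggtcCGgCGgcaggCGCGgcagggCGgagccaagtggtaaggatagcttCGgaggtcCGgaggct
Cox8b: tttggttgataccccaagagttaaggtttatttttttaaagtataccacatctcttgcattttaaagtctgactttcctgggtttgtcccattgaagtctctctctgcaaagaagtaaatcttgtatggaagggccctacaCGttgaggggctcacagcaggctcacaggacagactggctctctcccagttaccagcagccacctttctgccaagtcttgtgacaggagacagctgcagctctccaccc
Cox8a: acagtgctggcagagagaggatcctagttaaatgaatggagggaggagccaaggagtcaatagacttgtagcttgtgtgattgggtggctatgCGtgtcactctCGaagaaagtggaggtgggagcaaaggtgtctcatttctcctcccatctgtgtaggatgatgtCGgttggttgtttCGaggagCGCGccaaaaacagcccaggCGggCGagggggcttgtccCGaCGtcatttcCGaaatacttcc

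Cox8b had 1 CpG and Cox7a1 had 4, against 11 in Cox8a and 14 in Cox7a2. Cox6b2 had 8, Cox7a2l 13, Cox6b1 14 and Cox6a1 26. The median over 32841 upstream windows of the table was 6, with quartiles of 2 and 16, so Cox8b lay below the lower quartile and Cox6a1 above the upper one. Windows were at hand for 7 of the 10 genes, and those of Cox4i1, Cox4i2 and Cox6a2 were not analysed here. These are counts of letters, and no methylation was measured.

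**Figure D1:**
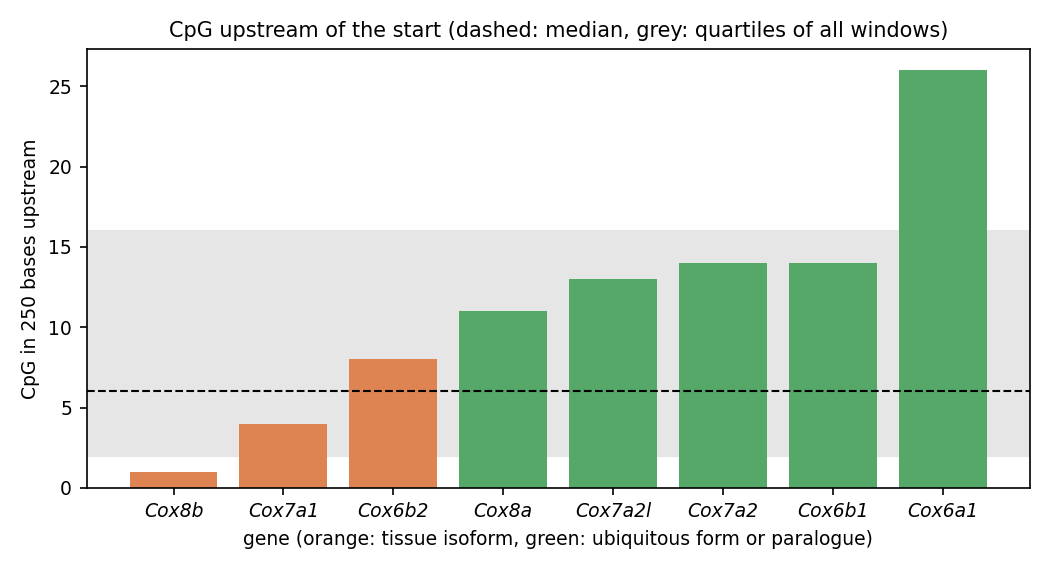
Number of CpG dinucleotides (vertical axis) in the 250 bases upstream of the start of each gene with a window, muscle-type and other tissue forms in orange and general forms and Cox7a2l in green. The dashed line is the median of 6 over 32841 windows and the grey band the quartiles 2 and 16; the 3 orange bars stand at 1, 4 and 8 and the green ones from 11 to 26.

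Known binding motifs were searched on both strands of the same windows. The NRF1 core GCGCATG, which 3.24% of all windows hold, was found in Cox6a1, as 2 overlapping matches on opposite strands between positions -162 and -153 from the start. The ETS motif CCGGAAG, recognised by NRF2 (GABP) and held by 6.91% of windows, was found in Cox6a1 (-16 to -10) and in Cox6b1 (-28 to -22). The C/EBP core TTNNGNAA (36.9% of windows) was found in Cox6a1, Cox7a2l and Cox8a, and in none of Cox6b1, Cox6b2, Cox7a1, Cox7a2 and Cox8b. The E-box CANNTG (66.2% of windows) occurred once in each of Cox7a1, Cox8b and their general partners. The MEF2 consensus (0.509% of windows), the ERR motif AAGGTCA (4.08%) and the TATA box TATAAA (12.4%) had no match in any of these windows, which says only that these letters are not there. The GC box GGGCGG (32.7%) was matched in Cox6a1, Cox6b2, Cox7a2 and Cox7a2l.

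Of the 5 tissue forms, 4 lie on chromosome 7, far from each other: Cox6b2 (4751792 to 4753094), Cox7a1 (30184171 to 30186030), Cox6a2 (128205435 to 128206366) and Cox8b (140898942 to 140900446). The general form Cox6b1 is also on chromosome 7 (30616971 to 30626114). Cox4i2 is on chromosome 2, Cox7a2l on 17 and the other general forms on 5, 8, 9 and 19, in the RefSeq annotation of GRCm38.p6.

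In Senp2-aKO fat the 3 muscle-type forms were several-fold higher than in control fat, while their general partners differed by at most 1.29-fold. The 2 other tissue forms, Cox4i2 and Cox6b2, did not share the large difference. In the fit over all genes, 3 of the 10 passed at a limma adjusted p under 0.05 and were higher (Cox6a2, Cox7a1 and Cox8b), and 0 were lower. Over all 14731 genes, 7.29% passed as higher and 7.12% as lower. Because this contrast brought the genes forward, nothing is read from that count. It was 2 without control 1 (Cox6a2 did not pass), 5 without Senp2-aKO 2 (Cox4i1 and Cox7a2 passed too) and 7 with array weights, which added Cox4i1, Cox6a1, Cox7a2 and Cox8a.

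**Figure D2:**
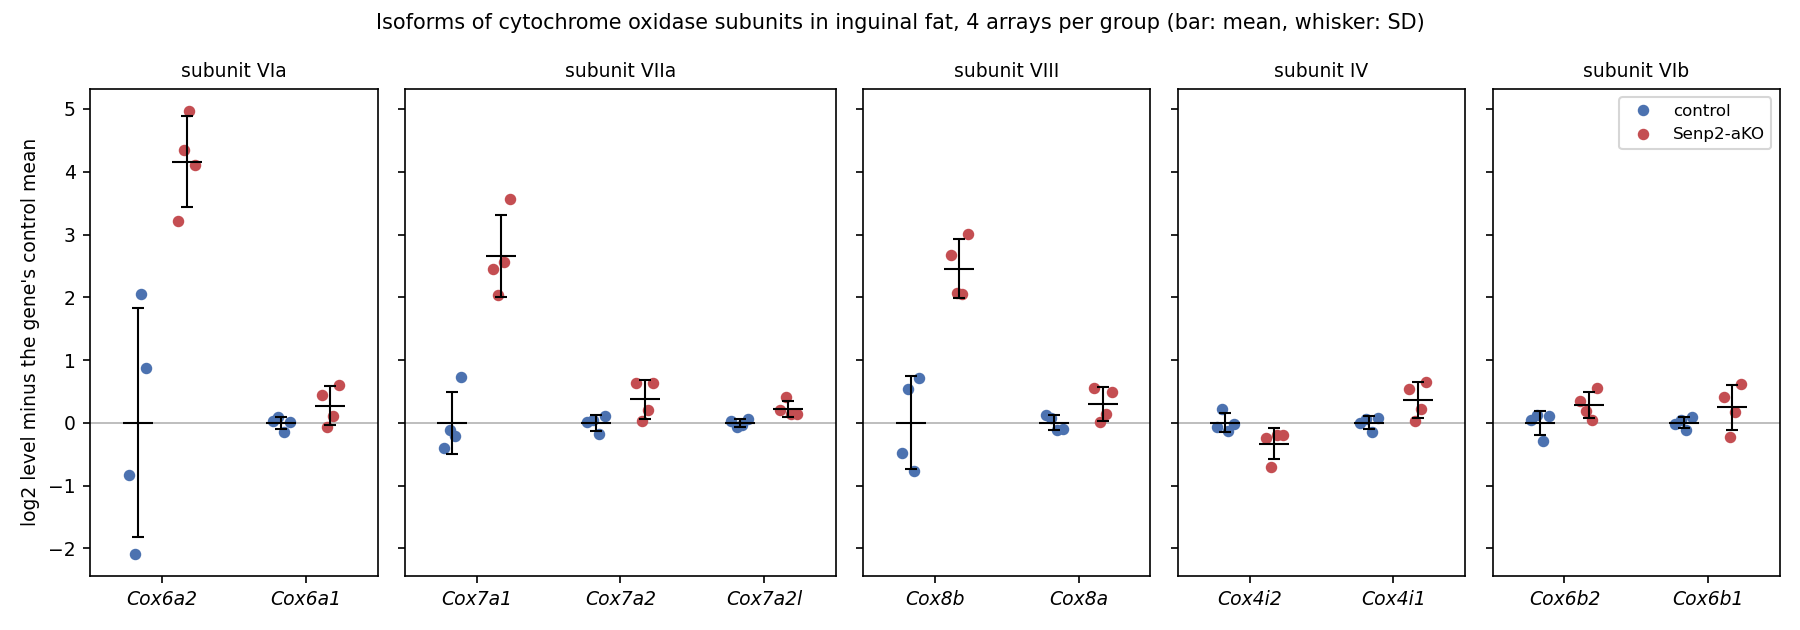
Log2 level of each gene minus its own control mean (vertical axis), 1 point per array, blue for control and red for Senp2-aKO, with mean and SD (n = 4 per group), grouped by subunit. The red points of Cox6a2, Cox7a1 and Cox8b lie above all their blue points, while those of Cox6a1, Cox7a2 and Cox8a overlap the controls.

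Cox6a2, the muscle-type form of subunit VIa, had control levels of -0.22, -1.47, 2.67 and 1.48 (samples 1 to 4) and Senp2-aKO levels of 3.83, 4.96, 5.58 and 4.72. All Senp2-aKO arrays lay above all controls. Among the controls samples 3 and 4 were high and sample 2 lowest. The means were 0.61 ± 1.83 and 4.77 ± 0.72 (SD, n = 4 per group), a difference of 4.16 (SE 0.84), or 17.9-fold with a 95% interval of 4.65 to 68.5. Leaving out control 2, the lowest, gave a difference of 3.46, and leaving out control 3, the highest, gave 4.84. It was the 43rd highest difference of all genes tested.

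Its general partner Cox6a1 had levels of 9.12, 9.19, 8.96 and 9.12 in controls and 9.55, 9.03, 9.21 and 9.70 in Senp2-aKO samples. The groups overlapped, Senp2-aKO 2 lying among the controls, Senp2-aKO 1 and 4 above them and Senp2-aKO 3 only just above the highest control. The difference was 0.27 (SE 0.15), or 1.21-fold with an interval of 0.945 to 1.55.

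Cox7a1, the muscle-type form of subunit VIIa, had control levels of 2.96, 3.25, 3.15 and 4.08 and Senp2-aKO levels of 5.81, 5.40, 5.92 and 6.94. The groups did not overlap, and sample 4 was the highest of its group in each. The means were 3.36 ± 0.50 and 6.02 ± 0.65 (SD, n = 4 per group), a difference of 2.66 (SE 0.36), or 6.31-fold with an interval of 3.57 to 11.1.

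The general form Cox7a2 was measured at 6.09, 6.13, 5.91 and 6.20 in controls and at 6.71, 6.11, 6.29 and 6.71 in Senp2-aKO samples. Again only Senp2-aKO 2 fell among the controls, and the difference was 0.37 (SE 0.16, 1.29-fold). Cox7a2l, the supercomplex factor, followed another order, with levels of 6.34, 6.24, 6.27 and 6.37 in controls and 6.51, 6.72, 6.45 and 6.44 in Senp2-aKO samples. All its Senp2-aKO arrays lay above all controls, Senp2-aKO 2 was the highest, and the difference was 0.23 (SE 0.09, 1.17-fold). Its 3 probes gave 0.23, 0.25 and 0.19, so they had one direction.

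Cox8b, the muscle-type form of subunit VIII, had control levels of 4.68, 5.70, 4.39 and 5.88 and Senp2-aKO levels of 7.84, 7.23, 7.22 and 8.17. The groups did not overlap, with controls 2 and 4 above controls 1 and 3 and Senp2-aKO 4 the highest. The means were 5.16 ± 0.74 and 7.62 ± 0.47 (SD, n = 4 per group), a difference of 2.45 (SE 0.38), or 5.47-fold (interval of the log2 difference 1.58 to 3.33).

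The general form Cox8a stood at 8.65, 8.61, 8.42 and 8.44 in controls and at 9.08, 8.55, 8.66 and 9.03 in Senp2-aKO samples. Senp2-aKO 2 was again within the control range, and the difference was 0.30 (SE 0.14, 1.23-fold; 0.27 by its second probe).

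Cox4i2, the form of subunit IV known from lung, had levels of 0.10, 0.39, 0.03 and 0.15 in controls and -0.07, -0.54, -0.02 and -0.03 in Senp2-aKO samples. The Senp2-aKO values were each under the lowest control, narrowly except for Senp2-aKO 2, and the difference was -0.33 (SE 0.14), or -0.21 without Senp2-aKO 2 (0.794-fold with all arrays). Cox4i1, its general partner, differed the other way, from 7.75 ± 0.10 to 8.11 ± 0.29 (SD, n = 4 per group), a difference of 0.36 (SE 0.15, 1.28-fold) with overlapping groups.

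Cox6b2, the testis form, had levels of -0.58, -0.49, -0.90 and -0.51 in controls and -0.28, -0.42, -0.57 and -0.07 in Senp2-aKO samples. The groups overlapped, and the difference was 0.28 (SE 0.14, 1.22-fold). Cox6b1, the general form, which is no member of the set, differed by 0.25 (SE 0.17, 1.19-fold).

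Counted over the 10 genes, the groups did not overlap in 4 that were higher in Senp2-aKO samples (the 3 muscle-type forms and Cox7a2l) and 1 that was lower (Cox4i2). Over all genes tested, 11.2% did not overlap with higher Senp2-aKO values and 15.1% with lower ones. The median difference of the 10 genes was 0.33, of the general forms with Cox7a2l 0.30, and of all genes tested -0.02. The intervals of Cox6a2, Cox7a1 and Cox8b overlap one another, and Cox7a1 and Cox8b differed by less than either standard error, so their order is not set by these arrays.

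**Figure D3:**
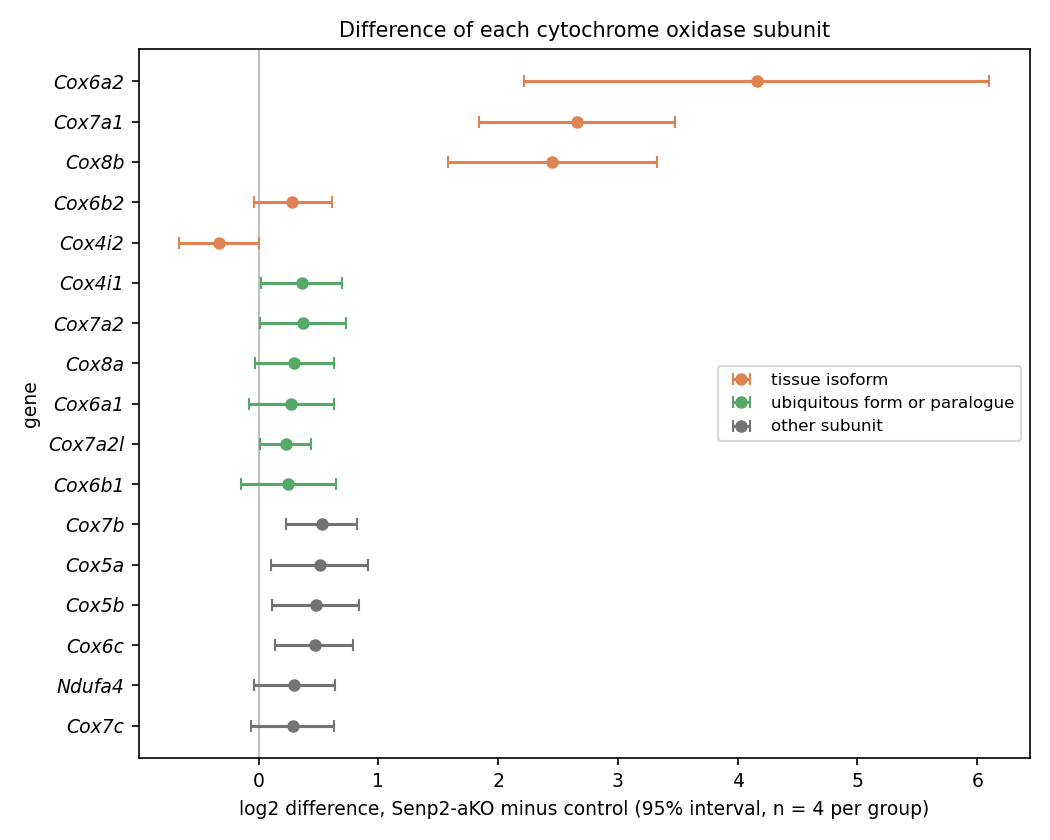
Log2 difference, Senp2-aKO minus control, with 95% interval (horizontal axis, n = 4 per group) for tissue forms in orange, general forms with Cox7a2l and Cox6b1 in green, and other subunits of the complex in grey. Cox6a2, Cox7a1 and Cox8b stand at 4.16, 2.66 and 2.45, and every other subunit drawn lies between -0.33 and 0.53.

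Within each array, the log2 level of a tissue form minus that of its partner shows how unequally the pair differed, without any scaling between arrays. The ratio of Cox7a1 to Cox7a2, taken relative to its control mean, was -0.41, -0.17, -0.04 and 0.61 in controls and 1.82, 2.02, 2.36 and 2.95 in Senp2-aKO samples. The groups were far apart, and the ratio was 4.87-fold higher in Senp2-aKO samples (log2 2.29, SE 0.33). Against Cox7a2l the ratio of Cox7a1 was 5.39-fold higher (2.43, SE 0.44).

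For Cox8b to Cox8a the values were -0.61, 0.46, -0.67 and 0.81 in controls and 2.12, 2.05, 1.92 and 2.51 in Senp2-aKO samples, a ratio 4.44-fold higher (2.15, SE 0.40). Taken as a ratio, the 4 Senp2-aKO samples were close to each other (SD 0.25), closer than the controls (SD 0.75). For Cox6a2 to Cox6a1 the controls ranged from -2.18 to 2.19 and the Senp2-aKO samples from 2.77 to 4.86, a ratio 14.8-fold higher (3.88, SE 1.07). The lowest Senp2-aKO sample lay only 0.58 above the highest control. The difference of this ratio was 3.16 without control 2 and 4.62 without control 3.

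The ratio of Cox4i2 to Cox4i1 was lower, at -0.78, -0.72, -0.41 and -0.85 in Senp2-aKO samples against -0.10 to 0.15 in controls, with no overlap (-0.69, SE 0.11, 0.619-fold; -0.43 under quantile normalisation). For Cox6b2 to Cox6b1 it was 0.04 (SE 0.14) with overlapping groups. Of the 5 pairs, 3 had a higher ratio with no overlap, 1 a lower ratio with no overlap and 1 overlapped. Of single genes tested, 11.2% did not overlap as higher and 15.1% as lower. How often the ratios of other gene pairs do not overlap was not tested, so nothing is read from the count of pairs.

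The small differences of the general forms depended on the scaling between arrays. Under quantile normalisation they were 0.10 for Cox4i1, 0.05 for Cox6a1, 0.19 for Cox7a2, 0.08 for Cox8a and 0.01 for Cox7a2l, against 4.14, 2.61 and 2.30 for Cox6a2, Cox7a1 and Cox8b. Before any scaling, the processed signal of Cox6a1 ran from 221316 to 239907 in controls and from 187960 to 272872 in Senp2-aKO samples, and that of Cox7a1 from 3176 to 6968 and from 15215 to 40250.

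The rest of complex IV was followed through a list of 9 subunits without a member of the set among them and a list of 23 assembly factors. Of 7 subunits tested, 1 rose, Cox7b (control 6.33 ± 0.14, Senp2-aKO 6.85 ± 0.20, SD, n = 4 per group; difference 0.53, SE 0.13, limma adjusted p = 0.0310), and 6 did not pass. Over all genes tested, 7.29% passed as higher. All 7 differences were above 0, with a median of 0.47, Cox5a next at 0.51 (SE 0.18) and Cox7c (0.29, SE 0.15) and Cox6b1 smallest. Under quantile normalisation 0 genes over both lists passed as higher and 1 as lower, so a rise of these subunits is not secure. The testis forms Cox7b2 and Cox8c were above background on 0 arrays.

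Of 20 assembly factors tested, 0 passed in limma in either direction. At an unadjusted p under 0.05 there were 1 above and 1 below 0, and the median was 0.06. Over all 14731 genes tested, 2171 lay above and 2586 below 0 at that threshold. The largest differences were those of Tmem177, which helps to mature subunit 2 (0.35, SE 0.19), and of the copper chaperone gene Cox11 (0.27, SE 0.09), and the lowest those of Higd1a (-0.40, SE 0.17) and the haem synthesis gene Cox15 (-0.22, SE 0.14). The count of risen genes over both lists was 0 on leaving out any control, Senp2-aKO 1 or Senp2-aKO 4, 1 without Senp2-aKO 3, 5 without Senp2-aKO 2 and 7 with array weights.

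Cox6a2, Cox7a1 and Cox8b are transcripts of striated muscle as well as of brown fat, and markers of both were higher on the same arrays. Of 16 skeletal muscle markers, 14 rose, and the list mean was -1.42, -1.37, 1.89 and 1.31 in controls and 3.77, 4.57, 5.34 and 4.45 in Senp2-aKO samples. All 16 were tested, among them Acta1, skeletal actin (2.64 ± 1.26 and 6.36 ± 0.54, SD, n = 4 per group), and Ckm, muscle creatine kinase (-1.66 ± 2.56 and 4.03 ± 0.77). Of 8 markers of slow and cardiac muscle, 7 were tested and 0 passed (0 also at an unadjusted p under 0.05), and the cardiac troponin Tnnt2 was above background on 0 control arrays and 1 Senp2-aKO array.

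Of 11 brown and beige markers, 6 rose and 5 did not pass, and the list mean was -0.62, -0.15, -0.63 and -0.36 in controls and 1.28, 1.28, 1.14 and 2.01 in Senp2-aKO samples. Ucp1, the uncoupling protein, had levels of -1.11, 0.46, -1.52 and -1.78 in controls and 5.04, 5.36, 4.43 and 6.65 in Senp2-aKO samples. Cidea, a lipid droplet protein of brown fat, had 3.55, 4.99, 2.83 and 4.63, and 6.09, 6.05, 5.54 and 6.91. The differences of 4 of the 5 that did not pass were below 0, at -0.40 for Zic1, -0.24 for Ebf2, -0.19 for Kcnk3 and -0.10 for Prdm16, and that of Otop1 was 0.93 (SE 0.40). The part of muscle and of brown adipocyte transcripts in the differences of the 3 forms was not tested.

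Array by array, Cox6a2 lay near the muscle list and Cox7a1 and Cox8b did not keep its order. Among controls, samples 3 and 4 had the highest muscle means and the highest Cox6a2, and among Senp2-aKO samples the order of both was 3, 2, 4, 1. Cox8b was lowest in control 3, where the muscle mean was highest, and its order among controls (4, 2, 1, 3) placed samples 2 and 4 above 1 and 3, as did Cidea. Ucp1 did not have that order, being lowest in control 4, where Cox7a1 and Cox8b were highest. In Senp2-aKO samples Cox7a1, Cox8b, Ucp1 and Cidea were all highest in sample 4, whose mean of the 16 skeletal muscle markers was the third. The mean of the slow and cardiac muscle list was also highest in sample 4 (-2.92, -3.76, -3.93 and -2.08 in Senp2-aKO samples 1 to 4, against -3.88 to -2.73 in controls). Myh7, the slow and cardiac myosin heavy chain, had -0.57 there and -3.83 to -3.10 on the other Senp2-aKO arrays, and the part of such transcripts in sample 4 was not tested. With 4 samples in a group these orders are a description, and no correlation within a group was tested.

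**Figure D4:**
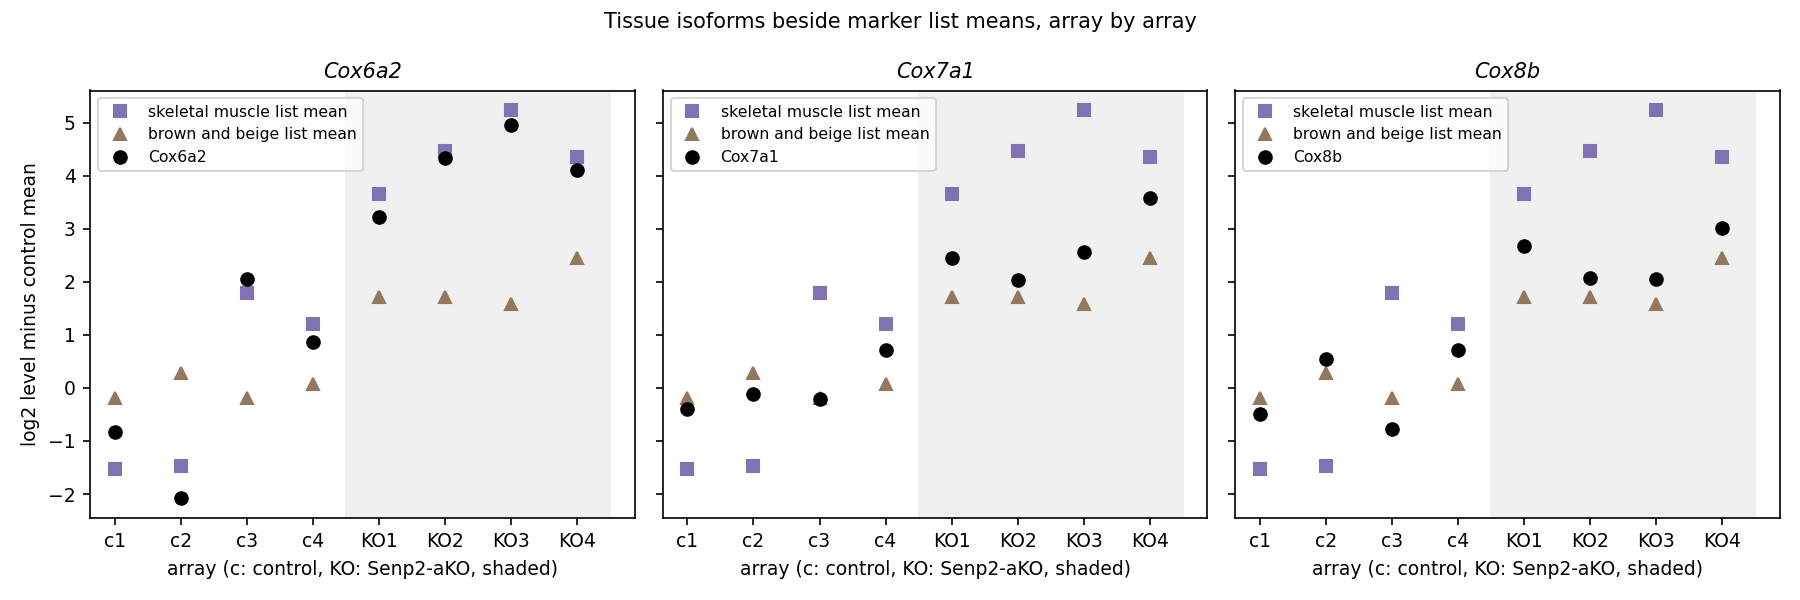
Log2 level minus control mean (vertical axis) on each of the 8 arrays (horizontal axis, Senp2-aKO shaded) for Cox6a2, Cox7a1 and Cox8b in black, the mean of 16 skeletal muscle markers in purple and of 11 brown and beige markers in brown. Cox6a2 lies at most 0.68 from the muscle mean on all 8 arrays, whereas Cox7a1 and Cox8b lie below it on the Senp2-aKO arrays and above it on controls 1 and 2.

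The genes with the most similar levels, by Pearson correlation over the 8 arrays among genes outside the set, differed for the 3 forms. For Cox6a2 they were Bves (r = 0.997), Cacna1s, Ckmt2, Myom2 (0.995 each) and Mybpc2 (0.992), all known from striated muscle, with differences of 3.51 to 5.85. For Cox7a1 they were Mcf2l (0.986), Rusc2 (0.984), Dnajb3, Pabpc4 (0.983 each) and Pdk4 (0.982), and for Cox8b they included Zrsr1 (0.987), Cstf3, Atg4d and Ddx28 (0.983 each), with differences of 0.34 to 2.21 and 0.43 to 0.61. All points share the difference between the groups, so the group means were also removed.

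On those deviations the nearest to Cox6a2 were again Bves (0.992), Myom2 (0.991), Cacna1s (0.983) and Ckmt2 (0.979), with Asb11 (0.978). The nearest to Cox7a1 were Slc22a28 (0.972), Mcf2l (0.965), Foxl2 (0.960), Nos3 (0.959) and Il27 (0.956). Those nearest to Cox8b were Hrct1 (0.988), the complex I gene Ndufv2 (0.987), Fam13a (0.984), Oxld1 (0.982) and Xrcc1 (0.980). Mcf2l was the only gene on both lists of Cox7a1, and none of those named was on both lists of Cox8b, whereas 4 of 5 were on both lists of Cox6a2. Each list, on levels or deviations, holds the highest values of a search over the genes outside the set, with 14731 genes tested. On so few arrays such a search can return high correlations between unrelated genes, and how high was not tested. The genes named for Cox6a2, Cox7a1 and Cox8b are therefore a description, and no shared control is read from them.

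Markers of further cell types were set beside these. The B and T lymphocyte lists had 0 of 5 genes passing each and ranges of -3.53 to -0.64 and -1.16 to 0.07 in controls against -3.23 to 2.08 and -1.83 to 2.65 in Senp2-aKO samples, the upper ends being Senp2-aKO 2. Of 4 macrophage genes tested 1 rose (2.35 to 2.92 and 2.73 to 3.19), and of 4 endothelial genes 0 passed (1.45 to 1.80 and 1.31 to 1.79). Of 6 adipocyte genes 1 fell, Lep, and the list means did not overlap (7.36 to 7.56 and 6.87 to 7.34). That mean holds the large difference of Lep (-1.85) and does not stand for the whole list. Pparg differed by -0.55, and the other 4 genes lay above 0, from 0.05 for Plin1 to 0.44 for Cidec. Of 4 epithelial genes tested 2 rose, the keratins Krt14 and Krt5, with list means of -3.91 to -3.33 and -3.14 to -1.91. Krt18 (2.81, SE 0.91) and Lor (0.20, SE 0.25) did not pass. Of those not tested, Epcam was above background on 0 control arrays and 1 Senp2-aKO array, and Krt8 on 0 and 3. Without Senp2-aKO 2 the differences of Cox6a2, Cox7a1 and Cox8b were 4.10, 2.86 and 2.58.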

How the data were processed

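RNA of 4 control and 4 Senp2-aKO samples of iWAT (0.5 µg, Cy3) was hybridised to 1-colour Agilent arrays of 62976 spots. Agilent Feature Extraction 11.5.1 (version per the submitters' processing notes) subtracted background and removed trends within each array, per the file headers. Processed signals, median signals and median backgrounds, as deposited, are intensity values without scaling between arrays, and the deposited flags are of the unit other (0 or 1). A deposited matrix with 8 columns that match no label was not used.

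Log2 processed signals were set relative to the 75th percentile of the array, and spots of a probe were averaged without flagged outliers, which left out 269 of 55681 probes. Probes above background on at least 4 arrays were kept. RefSeq accessions named 27656 probes (GRCm38.p6), and the probe with the highest mean stood for its gene. The members each had 1 probe, except Cox8a (2) and Cox7a2l (3). Control and Senp2-aKO were compared over 14731 genes with limma (version 3.58.1, R 4.3.3) with Benjamini-Hochberg adjustment, checked on simulated data. With 4 arrays per group, their number limits the precision. Ratios of pairs carry the standard error of the 2 group means.

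The members and lists were chosen with earlier results of these data known. Named were all members, of each complex IV list the genes that passed and the 2 largest and 2 smallest differences, the first 2 measured markers where a list is described, and the 5 genes most similar to Cox6a2, Cox7a1 and Cox8b, of which 1 is not reported here. Senp2 and genes beyond these were named after their values were seen. Alternatives were quantile normalisation, a normexp background with offset 50, other filters on dim probes, the mean of all probes, array weights, the replicate number as a block and leaving out each array.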

Additional observations from a re-analysis of the deposited data

Results flagged for a closer look

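Cox4i2 on Senp2-aKO 2, at a log2 level of -0.54, lay far below the other 3 Senp2-aKO arrays (-0.07 to -0.02), with a gap of 0.909 of the group's range. The ratio of Cox6b2 to Cox6b1 on the same array, 0.41 above the control mean, lay far above the other 3 (-0.12 to -0.07), with a gap of 0.918 of the range. No others were marked among 32 groups of 4 examined. Chance alone would mark about 1 in 20, so the number marked is near what chance gives. The groups are not independent, since the ratios reuse the levels of the genes. Senp2-aKO 2 is also the array with the highest lymphocyte means, whose part in these values was not tested.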

How the results depend on the processing

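For each of the 10 genes, all 15 alternatives kept the direction of the difference, from 3.46 to 4.84 for Cox6a2, 2.35 to 3.01 for Cox7a1, 2.20 to 2.69 for Cox8b, -0.38 to -0.21 for Cox4i2 and 0.19 to 0.36 for Cox6b2. Some of the 15 could not change a difference. The filters on dim probes and the replicate block return the same difference for each of the 10 genes. So does the mean of all probes for a gene with 1 probe. The ratio of Cox4i2 to Cox4i1 moved from -0.69 to -0.43 under quantile normalisation, and that of Cox6b2 to Cox6b1 ran from -0.09 to 0.09. Genes passing numbered 1074 higher and 1049 lower. They were 1833 and 1933 with array weights and 725 and 569 with the replicate block, 689 were lower with no filter on dim probes, and leaving out 1 array gave 434 to 1356 higher and 280 to 1472 lower. The count of complex IV subunits and assembly factors that rose was 1 as reported. It was 0 under quantile normalisation (with 1 lower), with no filter and with the replicate block, 2 with normexp and with the mean of all probes, 7 with array weights, and 0 to 5 on leaving out 1 array. The causes were not tested. Same-numbered samples deviated together with correlations of -0.02, -0.08, 0.14 and 0.11 over genes, and 3 of 8 samples correlated best with their own number, so the numbers were not taken as pairs. The block changed no call among the 10 genes. A slide block was not run, since there was 1 slide. With 1 probe for 8 of the 10 genes, no second probe checks Cox6a2, Cox7a1 or Cox8b.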
